A study of Mus musculus with 15 samples.

Results

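Medullary thymic epithelial cells (mTEC) were compared with epithelial cells of skin, using 6 of the 15 RNA sequencing libraries of a series on epithelial cells. The members were chosen by their labelled cell type, 3 mTEC libraries and 3 skin libraries. All were made with the same kit for stranded polyA RNA. Both groups came from untreated male C57BL/6J mice aged 8 weeks, and each library was a pool of FACS-sorted cells from 5 mice. The markers of the sort are not given in the sources used here, and what n = 3 measures is the spread between pools. The series was made to ask why MHC class I levels differ among epithelia, and its other groups, cortical thymic epithelium (cTEC), colon and lung, are used here only as a background.

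The epidermis is a stratified epithelium. Its basal keratinocytes make keratins 5 and 14, and on leaving the basal layer they switch to keratins 1 and 10, build desmosomes, and crosslink proteins such as loricrin and involucrin under the membrane into a cornified envelope. Medullary epithelium of the thymus shares the basal keratins and the transcription factor p63 with skin. Under AIRE, and in small subsets that resemble cells of other organs, it also transcribes genes of many peripheral tissues, so that developing T cells meet those antigens in the thymus. Some mTEC are known to cornify at the end of their lifespan, as in Hassall's corpuscles.

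The libraries carried the genes of their labels. Aire (ENSMUSG00000000731.15, chr10:78030022-78043610), the regulator of ectopic transcription, was measured at 613, 242 and 587 CPM (read counts scaled to library size with TMM factors) in mTEC and at 0, 1.85 and 0.424 CPM in skin. The suprabasal keratin gene Krt1 (ENSMUSG00000046834.6, chr15:101845426-101850794) had 17.9, 6.08 and 11 CPM in mTEC and 4631, 7247 and 3689 CPM in skin. Its partner Krt10 (ENSMUSG00000019761.10, chr11:99385254-99389364) had 71.9, 32.2 and 42.7 CPM in mTEC and 11608, 15899 and 10621 CPM in skin. No library overlapped the other group in any of these 3 genes. Of the other markers, Fezf2 and Ccl21a were at 214 to 313 and 1360.5 to 2064 CPM in mTEC, against 0 to 1.32 and 1.03 to 5.12 CPM in skin. The epidermal markers of the granular layer were weaker in skin than its keratins. Lor had 28.2, 35.9 and 101 CPM and Flg 0, 0.618 and 9.33 CPM there, with Flg at or near 0 in skin replicates 1 and 2.

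Skin replicates 1 and 3 stood apart from replicate 2 in different ways. The transcript Gm42418 (chr17:39846958-39848788), a noncoding RNA that overlaps a ribosomal RNA repeat, took 1.68%, 1.10% and 1.38% of gene reads in mTEC replicates 1 to 3 and 14.8%, 4.89% and 2.18% in skin replicates 1 to 3. In skin replicate 1 protein-coding genes held 81.6% of gene reads, against 93.4% to 97.4% in the other 5 libraries. Skin replicate 3 had high levels of cell cycle and hair follicle genes. The summed level of 20 cell cycle genes was 458, 321 and 401 CPM in mTEC and 389, 565 and 1619 CPM in skin. Of 9875 protein-coding genes at 10 CPM or more in a skin library, 82 were at least 8-fold higher in skin replicate 3 than the mean of the other skin libraries, against 1 for replicate 1 and 3 for replicate 2. The hair follicle keratins Krt71, Krt28, Krt25, Krt75 and Krt73 led these 82. Krt35 was also among them, as were Shh, Lef1, Hoxc13 and Msx2, regulators of the hair bulb. Markers of other cells differed as well. Fibroblast markers summed to 1735, 2119 and 2205 CPM in mTEC and 4465, 1545 and 8436 CPM in skin, and endothelial markers to 68.7, 46.9 and 58.0 CPM in mTEC and 562, 228 and 156 CPM in skin. In the test described below, 9 of 12 fibroblast markers were lower in mTEC, 2 higher and 1 did not pass, beside 22.4% lower and 34.6% higher of all genes tested. Their median log2 fold change, mTEC minus skin, was -3.39, so the fibroblast sums in mTEC do not stand for most members. The part of these cells in the results was not tested, and values without a skin library are given beside the results that rest on it. In bulk samples, fewer cells of a type and less RNA per cell cannot be told apart.

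**Figure D1:**
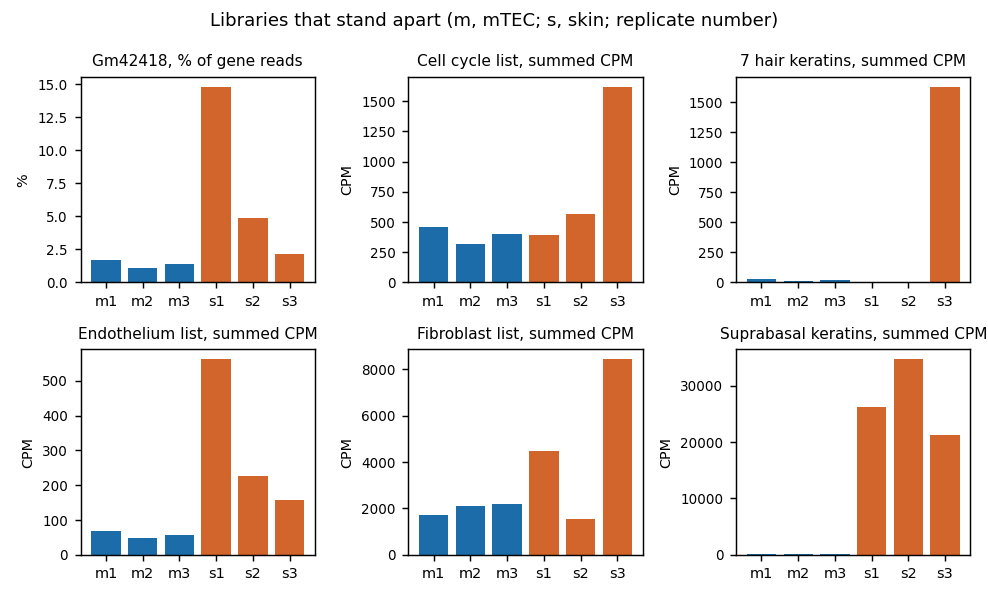
Values of each of the 3 mTEC libraries (left, blue) and 3 skin libraries (right, orange): the share of gene reads taken by Gm42418 in percent, and summed CPM of cell cycle genes, 7 hair follicle keratins, endothelial markers, fibroblast markers and suprabasal keratins. Skin replicate 1 is highest for Gm42418 at 14.8%, and skin replicate 3 holds 1628 CPM of hair follicle keratins against 3.20 and 2.91 CPM in the other skin libraries.

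Gene reads numbered 16015605, 15696678 and 18538657 in mTEC and 12946533, 13035361 and 15292850 in skin. Of 19107 genes tested in a model of all 15 libraries (edgeR quasi-likelihood F-test, Benjamini-Hochberg adjusted p under 0.05), 10899 or 57.0% passed between mTEC and skin. Higher in mTEC were 6610 genes, 34.6% of those tested, and lower were 4289 genes, 22.4%. Over all tested genes the log2 fold change had a median of 0.22. In a test against a 2-fold change 4366 genes stayed higher and 1605 lower. Counts of the gene groups below are to be read against 34.6% and 22.4%. All log2 fold changes are mTEC minus skin, followed by a standard error.

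The keratins divided into sets. All 6 suprabasal keratins were lower in mTEC, with a median log2 fold change of -6.67 and a summed level of 179, 74.8 and 116 CPM in mTEC against 26174, 34673 and 21213 CPM in skin. Krt1 was at -8.80 ± 0.57 (adjusted p = 2.46e-08) and Krt10 at -8.02 ± 0.41 (adjusted p = 3.72e-09). Krt77, a suprabasal keratin of interfollicular epidermis, had 60.3, 23.0 and 43.5 CPM in mTEC and 9466, 10765 and 6455 CPM in skin, at -7.72 ± 0.58 (adjusted p = 3.25e-07). Neither Krt1, Krt10 nor Krt77 was at 0 in any mTEC library.

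All 5 keratins of simple epithelia were higher in mTEC, with a median of 7.03. Krt8 had 1269.7, 1538 and 1239 CPM in mTEC and 3.10, 6.71 and 12 CPM in skin, a difference of 7.51 ± 0.41 (adjusted p = 6.46e-09), or 8.12 without skin replicate 3. Its partner Krt18 had 1538, 2054 and 1576 CPM in mTEC and 3.95, 9.27 and 10 CPM in skin, at 7.79 ± 0.35 (adjusted p = 1.31e-09). Krt7, found in ducts, was at 7.03 ± 0.23 (adjusted p = 1.83e-10). In all 3 genes the lowest mTEC library lay far above the highest skin library.

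The basal keratins were present in both groups. Krt5 had 3036, 4264 and 3952 CPM in mTEC and 12130.0, 15576 and 6632 CPM in skin. The libraries did not overlap, but the difference of -1.61 ± 0.70 did not pass (adjusted p = 0.064). It passed without skin replicate 3, without a filter on low counts (adjusted p = 0.032) and in a fit of the 6 libraries alone (adjusted p = 0.0200, log2 fold change -1.54). Krt14 had 1216, 1765 and 1506 CPM in mTEC and 9819.8, 12063 and 5585 CPM in skin. Its difference of -2.61 ± 0.99 passed (adjusted p = 0.0360), and no longer did so when mTEC replicate 1, 2 or 3 or skin replicate 1 or 2 was left out. Krt15, a basal keratin enriched in the follicle bulge, differed most of the 3, with 19.2, 16.1 and 16.7 CPM in mTEC and 6452, 7791 and 2029.7 CPM in skin (-8.29 ± 0.94, adjusted p = 5.08e-06). Per length, Krt5 was at 3044 ± 389.9 TPM in mTEC (SD, n = 3), above Krt18 at 2134 ± 247, Krt8 at 1831 ± 139 and Krt14 at 1759 ± 217 TPM, and the ranges of mean ± SD of those 3 overlapped. In skin Krt14 was at 7718 ± 1886, Krt10 at 7389.8 ± 1279 and Krt5 at 6150.3 ± 1737 TPM. Within a group these genes were measured in the same libraries, so the SD between libraries does not test their order, in mTEC or in skin. Krt17, at 3019.7 ± 205 TPM in mTEC and 1175 ± 525 TPM in skin, did not pass (0.89 ± 0.55, adjusted p = 0.184), except in the fit of the 6 libraries alone (0.95, adjusted p = 0.028).

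Over the whole family, 49 of 53 keratins were tested, 11 were higher in mTEC, 18 lower and 20 did not pass. The higher ones included Krt13, Krt76 and Krt9, which mark oral, palatal and sole epithelium, at low levels. Krt9 had 23.1, 7.53 and 10.8 CPM in mTEC and 0, 0.0883 and 0 CPM in skin. Without skin replicate 3 the count of higher keratins was 25. Of 30 hair follicle and sebaceous genes tested, 16 were lower in mTEC and 3 higher, and without skin replicate 3 those counts were 9 and 11. With the replicate number as a block, or with DESeq2, 10 were lower. Krt73, an inner root sheath keratin, had 9.69, 3.01 and 5.85 CPM in mTEC and 0, 0 and 112 CPM in skin, so that only skin replicate 3 lay above mTEC. The hair follicle genes lower in mTEC that did not rest on skin replicate 3 included Krt79, a keratin of the follicle's upper part, with 15.2, 5.24 and 8.97 CPM in mTEC and 374, 708 and 702 CPM in skin (-5.92 ± 0.49, adjusted p = 2.55e-07). Lgr6, a stem cell receptor, had 4.62, 2.01 and 4.16 CPM in mTEC and 143, 116 and 84.3 CPM in skin (-4.98 ± 0.71, adjusted p = 3.88e-05).

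**Figure D2:**
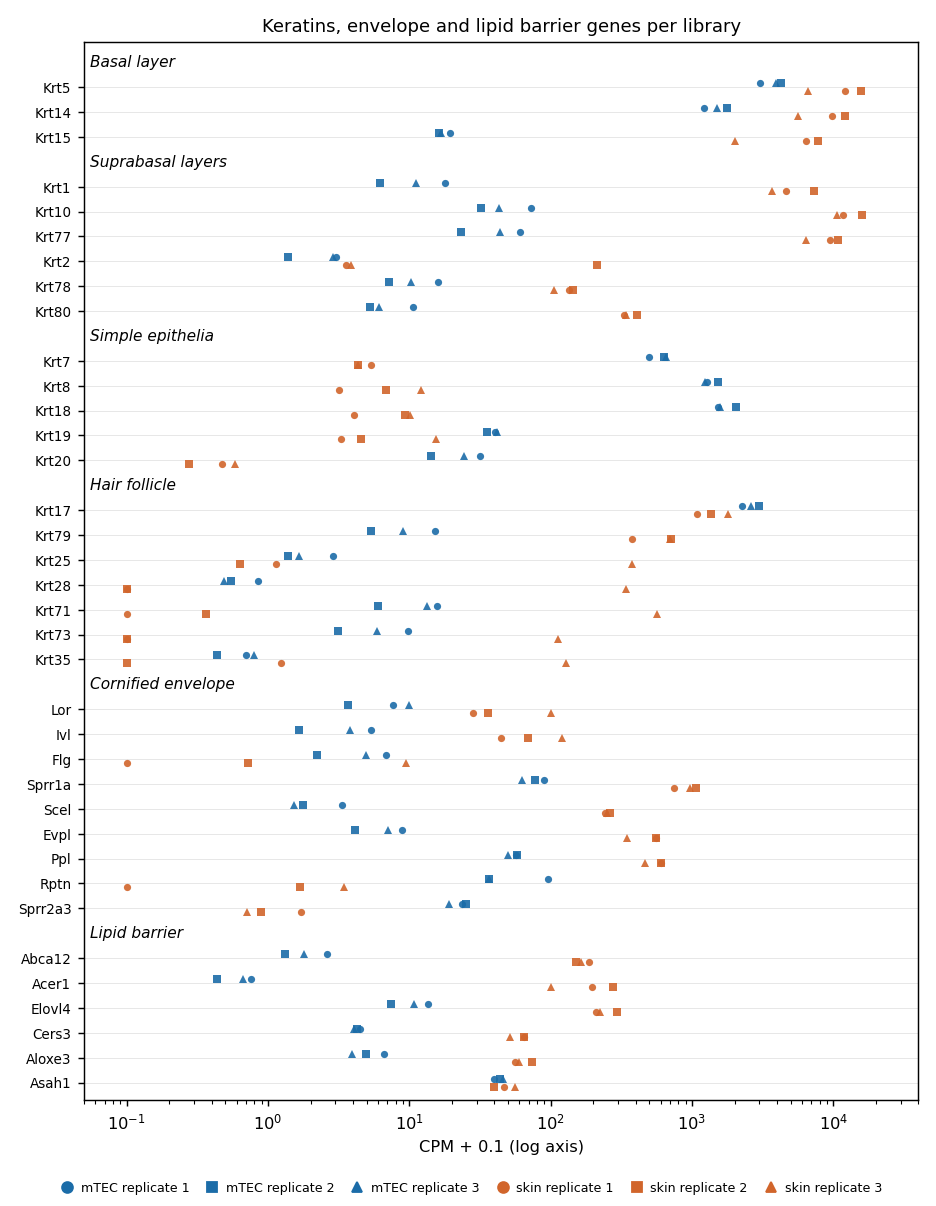
CPM + 0.1 on a log axis for keratin and cornification genes, with 1 point per library, mTEC in blue above skin in orange, and the marker shape giving the replicate. Krt1 and Krt10 are lower and Krt8 and Krt18 higher in all 3 mTEC libraries than in skin, while Flg and Asah1 overlap between the groups.

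Cornification genes were found in more variety and at lower levels in mTEC. Of the 43 cornified envelope precursors listed, 34, 25 and 38 reached 5 reads in the 3 mTEC libraries after thinning to equal depth, and 18, 19 and 24 in the skin libraries. Their summed level ran the other way, at 240, 193 and 193 CPM in mTEC and 2303, 2735 and 2570 CPM in skin. Of the 27 tested, 12 were lower in mTEC, 5 higher and 10 did not pass, with a median of -0.70, or -1.20 with the genes that had no read in skin at their lower bound. The count of higher members was 3 without mTEC replicate 1, 8 without skin replicate 3, 2 in the fit of the 6 libraries alone, 12 without a filter and 3 with a filter at 1 CPM in 3 libraries.

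The precursors lower in mTEC included scaffold and crosslinked proteins of the envelope. Scel, the sciellin of the envelope, had 3.21, 1.67 and 1.43 CPM in mTEC and 243, 262 and 249 CPM in skin (-6.90 ± 0.35, adjusted p = 3.44e-09). Evpl and Ppl encode plakins that form the first scaffold of the envelope. Evpl was at -6.20 ± 0.34 (adjusted p = 6.46e-09), and Ppl, with 56.3, 57.9 and 49.9 CPM in mTEC and 599, 603 and 468 CPM in skin, at -3.35 ± 0.14 (adjusted p = 1.1e-09). Sprr1a, a small proline-rich crosslinker, had 89.0, 77.9 and 62.8 CPM in mTEC and 749, 1070.5 and 966 CPM in skin (-3.60 ± 0.41, adjusted p = 5.02e-06). Ivl, involucrin, had 5.22, 1.56 and 3.68 CPM in mTEC and 44.7, 69.4 and 120.3 CPM in skin (-4.48 ± 0.57, adjusted p = 1.49e-05). Lor, loricrin, had 7.58, 3.57 and 9.79 CPM in mTEC and the skin values above (-2.97 ± 0.47, adjusted p = 0.000108), and was at -2.17 without skin replicate 3. The groups did not overlap in any of these 6 genes, as in 58.3% of all genes tested.

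The granular layer's large fused S100 proteins gave another picture. Of 6 tested, Rptn was higher in mTEC, Flg2 lower, and the other 4 did not pass. Rptn, repetin, had 96.0, 36.4 and 36.4 CPM in mTEC and 0, 1.59 and 3.33 CPM in skin (5.01 ± 0.83, adjusted p = 0.000147), or 6.12 without skin replicate 3. Flg, filaggrin, had 6.78, 2.12 and 4.85 CPM in mTEC against the 0, 0.618 and 9.33 CPM of skin, so that the groups overlapped (0.43 ± 1.17, adjusted p = 0.771). Its difference depended on the skin library left out. Without skin replicate 3 it was 3.86 (adjusted p = 0.015) and 5 of these genes were higher in mTEC, and without skin replicate 1 or 2 it was -0.14 or -0.05. The count of higher members was 2 without mTEC replicate 2, skin replicate 1 or skin replicate 2 and with DESeq2, and 3 without a filter.

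Small proline-rich and late cornified envelope genes are clusters of close copies, and reads that match several copies are lost from these counts, so single copies are uncertain. Of 13 small proline-rich genes tested, 4 were higher, 3 lower and 6 did not pass, and 2 were higher without mTEC replicate 1 and 1 in the fit of the 6 libraries alone. The family summed to 138, 117 and 99.2 CPM in mTEC and 798, 1161 and 1211 CPM in skin. Late cornified envelope genes were scarce in both groups, with 14, 6 and 18 of 21 detected in mTEC and 5, 4 and 7 in skin, at summed levels of 11.7, 4.41 and 14.7 CPM in mTEC and 6.86, 3.71 and 9.46 CPM in skin.

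Promoter sequences are shown for the regulator Aire, for the ectopic antigen Crp, and for the skin genes Krt10, Lor and Ivl, picked because they hold a TATA box. Of 14 promoters read for genes described here, these 5 held TATAAA in the last 50 bases and 9 did not, those of Fezf2, Csn2, Krt8, Krt18, Krt5, Krt14, Flg, Sbsn and Krt77. Each sequence is the 250 bases before the RefSeq start in GRCm38.p6, 5′ to 3′ on the gene's strand. That start lay 2324 bases from the GENCODE start in Fezf2, 1518 in Krt14, 205 in Csn2 and 140 in Krt8. For these genes the last 50 bases are not those before the GENCODE start. In Flg a TATAAA on the gene's strand began just outside the last 50 bases. The 9 promoters are therefore not shown to lack a TATA box. TATAAA in the last 50 bases and TGANTCA are in capitals. TGANTCA, where N is any base, is a wider pattern than the AP-1 consensus TGA(C/G)TCA, and a match on one strand is also a match on the other. The matches in Lor (TGAGTCA) and Ivl (TGACTCA) have the AP-1 consensus, and the match in Crp (TGATTCA) does not. Aire is at chr10:78043611-78043860 (minus strand), Crp at chr1:172697806-172698055 (plus), Krt10 at chr11:99389365-99389614 (minus), Lor at chr3:92083143-92083392 (minus) and Ivl at chr3:92573736-92573985 (minus).
Aire: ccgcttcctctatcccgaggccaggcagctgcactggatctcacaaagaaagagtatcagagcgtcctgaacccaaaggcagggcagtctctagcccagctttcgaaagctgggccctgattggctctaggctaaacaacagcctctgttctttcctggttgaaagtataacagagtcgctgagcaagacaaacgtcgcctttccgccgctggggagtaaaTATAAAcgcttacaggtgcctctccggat
Crp: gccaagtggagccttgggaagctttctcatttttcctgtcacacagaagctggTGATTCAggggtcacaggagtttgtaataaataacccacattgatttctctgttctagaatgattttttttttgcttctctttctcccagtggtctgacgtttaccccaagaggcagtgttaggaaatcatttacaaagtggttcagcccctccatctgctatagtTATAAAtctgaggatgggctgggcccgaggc
Krt10: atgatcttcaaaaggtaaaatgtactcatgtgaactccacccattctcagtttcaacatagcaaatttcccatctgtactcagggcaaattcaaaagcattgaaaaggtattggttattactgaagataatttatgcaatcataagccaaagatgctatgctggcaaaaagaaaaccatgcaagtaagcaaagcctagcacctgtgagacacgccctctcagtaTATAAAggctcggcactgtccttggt
Lor: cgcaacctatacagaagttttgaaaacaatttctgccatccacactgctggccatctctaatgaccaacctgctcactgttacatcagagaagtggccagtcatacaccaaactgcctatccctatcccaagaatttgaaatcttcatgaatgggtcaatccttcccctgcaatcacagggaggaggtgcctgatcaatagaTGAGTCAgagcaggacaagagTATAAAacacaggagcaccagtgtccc
Ivl: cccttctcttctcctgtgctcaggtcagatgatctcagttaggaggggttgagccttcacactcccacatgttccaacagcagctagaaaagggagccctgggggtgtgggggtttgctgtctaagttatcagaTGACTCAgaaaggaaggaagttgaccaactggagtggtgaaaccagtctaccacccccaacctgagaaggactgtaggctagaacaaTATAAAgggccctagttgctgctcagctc

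TATAAA started 29 bases before the start in Aire and Ivl, 31 in Crp, 26 in Krt10 and 27 in Lor. TGANTCA stood at -48 in Lor, -116 in Ivl and -197 in Crp. A promoter sequence was found for 12627 of the 16217 protein-coding genes tested, and 2.67% of these held TATAAA on the gene's strand in the last 50 bases. The share was 9.11% among 768 genes at least 32-fold higher in mTEC, 11.2% among 116 genes at least 32-fold lower and 0.724% among 3729 genes within 2-fold. Among 38 cornified envelope precursors it was 36.8%, and among 36 keratins 41.7%. TGANTCA was found on either strand in 5.03% of the tested promoters, against 8.46%, 13.8% and 3.27% in the same 3 classes and 31.6% in the cornified precursors. The ratio of observed to expected CpG had a median of 0.676 over tested genes, 0.277 among genes at least 32-fold higher, 0.335 among those at least 32-fold lower and 0.801 within 2-fold. Many of these promoters belong to gene clusters with shared sequence. A match is a description of letters in a window.

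Enzymes that crosslink and process the envelope were next. Of 14 tested, 7 were lower, 2 higher and 5 did not pass, with a median of -1.05. Tgm3, a transglutaminase of the upper layers, had 22.6, 5.58 and 11.7 CPM in mTEC and 66.6, 163 and 57.0 CPM in skin (-2.84 ± 0.55, adjusted p = 0.000517), or -2.21 without skin replicate 2. Tgm1, the main envelope transglutaminase, differed less, with 34.5, 52.9 and 19.5 CPM in mTEC and 57.6, 76.3 and 83.8 CPM in skin (-1.03 ± 0.38, adjusted p = 0.0334), and lost its call without mTEC replicate 1 or 3 or skin replicate 2 or 3. Casp14, a caspase that processes filaggrin, had 2.76, 1.34 and 2.12 CPM in mTEC and 49.3, 87.9 and 72.3 CPM in skin (-5.06 ± 0.35, adjusted p = 1.74e-07). The 2 higher genes were the peptidylarginine deiminases Padi1 and Padi2. Padi1 had 5.07, 2.57 and 3.47 CPM in mTEC and 0, 0 and 0.121 CPM in skin. Padi2 had 12.6, 3.85 and 6.67 CPM in mTEC and 0, 0.706 and 0 CPM in skin, where only replicate 2 had reads. Without skin replicate 3 the count of higher members was 6.

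Proteases of desquamation cut the links between corneocytes. Of 18 genes of this list tested, 11 were lower, 4 higher and 3 did not pass, with a median of -2.57. Klk8 had 3.77, 2.18 and 4.07 CPM in mTEC and 50.5, 67.0 and 61.2 CPM in skin (-4.15 ± 0.35, adjusted p = 2.6e-07). Klk11, a trypsin-like kallikrein, had 1.26, 0.781 and 1.08 CPM in mTEC and 214, 264 and 97.5 CPM in skin (-7.51 ± 0.40, adjusted p = 5.27e-09). Spink5 encodes the inhibitor LEKTI and had 87.5, 39.4 and 51.7 CPM in mTEC and 266, 288 and 261 CPM in skin (-2.19 ± 0.46, adjusted p = 0.00101). Over the kallikrein family all 26 genes were detected in each of the 3 mTEC libraries, and 8, 8 and 9 in the skin libraries. The family summed to 174, 72.7 and 131 CPM in mTEC and 452, 603 and 503 CPM in skin. Of 25 kallikreins tested, 14 of which had no read in skin, 17 were higher in mTEC and 6 lower. Klk1, of salivary gland and kidney, had 21.3, 12 and 11.4 CPM in mTEC and no read in skin, at least 190-fold higher against a floor of 3 reads over the skin libraries. Such floors cover counting error only. Many kallikreins are close copies, so the split of reads among the Klk1b genes is uncertain. Ctsl, the lysosomal protease cathepsin L, was one of the few genes of this list abundant in mTEC, with 1543, 2106 and 1753 CPM in mTEC and 167, 134 and 196 CPM in skin (3.44 ± 0.22, adjusted p = 2.53e-08).

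Most lipid barrier genes were lower in mTEC. The lipid barrier seals the outer epidermis with ceramides that lipoxygenases and lipases attach to the envelope. Of 23 genes tested, 18 were lower in mTEC, 5 did not pass and none was higher, with a median of -2.85, and without skin replicate 3 there was 1 higher gene. Acer1, the epidermal ceramidase, had 0.653, 0.335 and 0.563 CPM in mTEC and 195, 277 and 101 CPM in skin (-8.50 ± 0.52, adjusted p = 1.55e-08). Abca12, which loads lipids into lamellar granules, had 2.51, 1.23 and 1.69 CPM in mTEC and 187, 152 and 163 CPM in skin (-6.52 ± 0.65, adjusted p = 1.45e-06). Elovl4, which makes very long acyl chains, was at -4.52 ± 0.40 (adjusted p = 4.96e-07), and Cers3, the matching ceramide synthase, at -3.85 ± 0.25 (adjusted p = 2.78e-08). Aloxe3 and Alox12b, the lipoxygenase pair, were at -3.65 ± 0.23 (adjusted p = 2.38e-08) and -2.21 ± 0.47 (adjusted p = 0.00104). The members near equality were housekeeping enzymes of lysosomes. Asah1 had 39.7, 43.4 and 46.1 CPM in mTEC and 46.5, 39.8 and 55.9 CPM in skin (-0.14 ± 0.14, adjusted p = 0.419), and Smpd1 had 39.9, 37.9 and 50.4 CPM in mTEC and 28.8, 36.8 and 40.2 CPM in skin (0.28 ± 0.15, adjusted p = 0.124), or 0.41 without skin replicate 3 (adjusted p = 0.041).

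**Figure D3:**
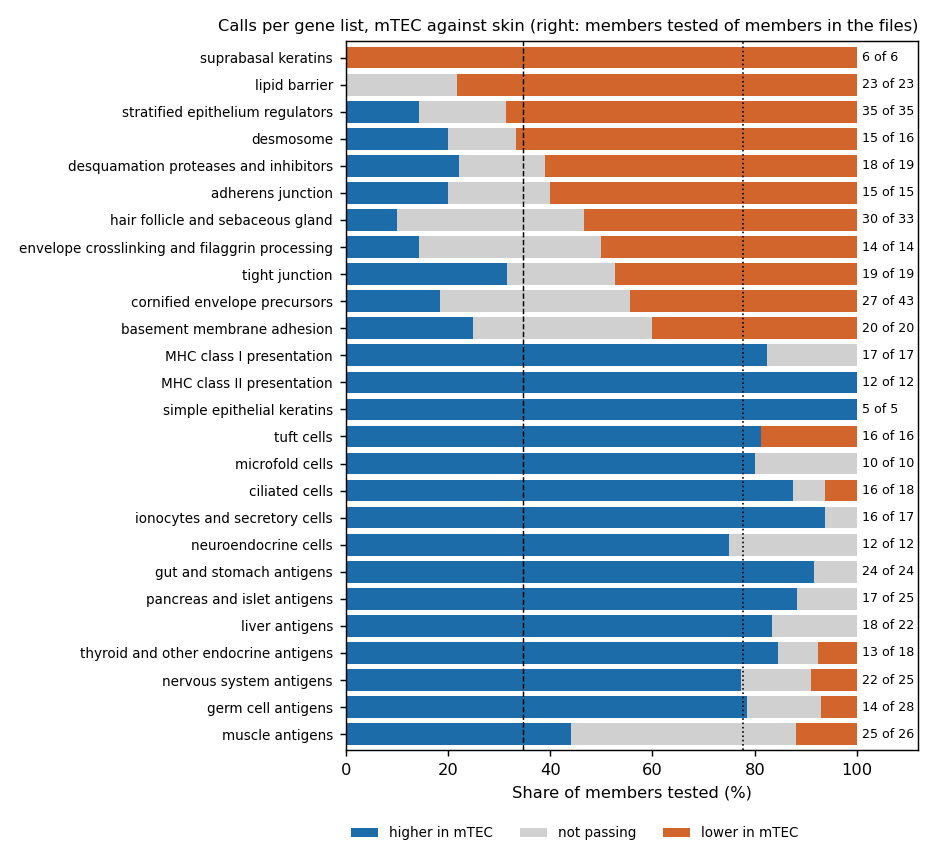
Share of the tested members of each gene group that were higher in mTEC, did not pass, or were lower in mTEC, in percent. The dashed line marks the 34.6% of all genes tested that were higher, and the dotted line leaves the 22.4% that were lower to its right; the lipid barrier and suprabasal keratins lie at one end, and antigens of other organs and MHC class II at the other.

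Desmosomes, which rivet neighbouring cells together, differed by isoform, with the cadherins Dsg1a, Dsg3 and Dsc3 lower in mTEC and Dsg2 and Dsc2 higher. Of 15 desmosomal genes tested, 10 were lower in mTEC, 3 were higher and 2 did not pass, with a median of -2.50 and summed levels of 2948, 3244 and 2702 CPM in mTEC and 15457, 16890 and 11629 CPM in skin. The desmosomal cadherin Dsg3 of the basal epidermis had 6.38, 5.97 and 2.86 CPM in mTEC and 192, 192 and 155 CPM in skin (-5.15 ± 0.49, adjusted p = 9.39e-07). Dsg1a had 103, 77.9 and 78.0 CPM in mTEC and 640.1, 599 and 493 CPM in skin (-2.74 ± 0.30, adjusted p = 3.52e-06). Dsg1a and Dsg1b are near-identical copies and their split is uncertain. Dsc3, the basal desmocollin, was at -2.68 ± 0.49 (adjusted p = 0.00034).

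The 3 higher genes were Dsg2, Dsc2 and Pkp2, the set of simple epithelia and heart. Dsg2 had 423, 465 and 321 CPM in mTEC and 62.5, 76.1 and 86.2 CPM in skin (2.42 ± 0.30, adjusted p = 1.06e-05). Dsc2 had 138, 159 and 135 CPM in mTEC and 7.80, 6.00 and 7.64 CPM in skin (4.33 ± 0.50, adjusted p = 6.35e-06). Pkp2 had 18.5, 15.7 and 13.4 CPM in mTEC and 1.13, 0.353 and 2.55 CPM in skin (3.46 ± 0.40, adjusted p = 5.41e-06), or 4.46 without skin replicate 3. The groups were apart in every one of these genes. Within mTEC, Dsg2 at 121 ± 22.7 TPM stood over Dsg1a at 36.8 ± 9.52 and Dsg3 at 2.02 ± 0.789 TPM, and in skin Dsg1a at 159 ± 14.3 TPM stood over Dsg3 at 49.3 ± 3.83 and Dsg2 at 15.6 ± 5.03 TPM (SD, n = 3 each). Of the plaque proteins, Dsp and Jup were in both groups and lower in mTEC. Dsp, desmoplakin, had 823, 887 and 720.1 CPM in mTEC and 3597, 3076 and 2885 CPM in skin (-1.98 ± 0.18, adjusted p = 7.67e-07). Jup, plakoglobin, had 329, 364 and 333 CPM in mTEC and 3570.1, 3899 and 2249.5 CPM in skin (-3.24 ± 0.21, adjusted p = 2.92e-08). Perp, a tetraspan protein of stratified desmosomes, was at -3.07 ± 0.29 (adjusted p = 8.24e-07).

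**Figure D4:**
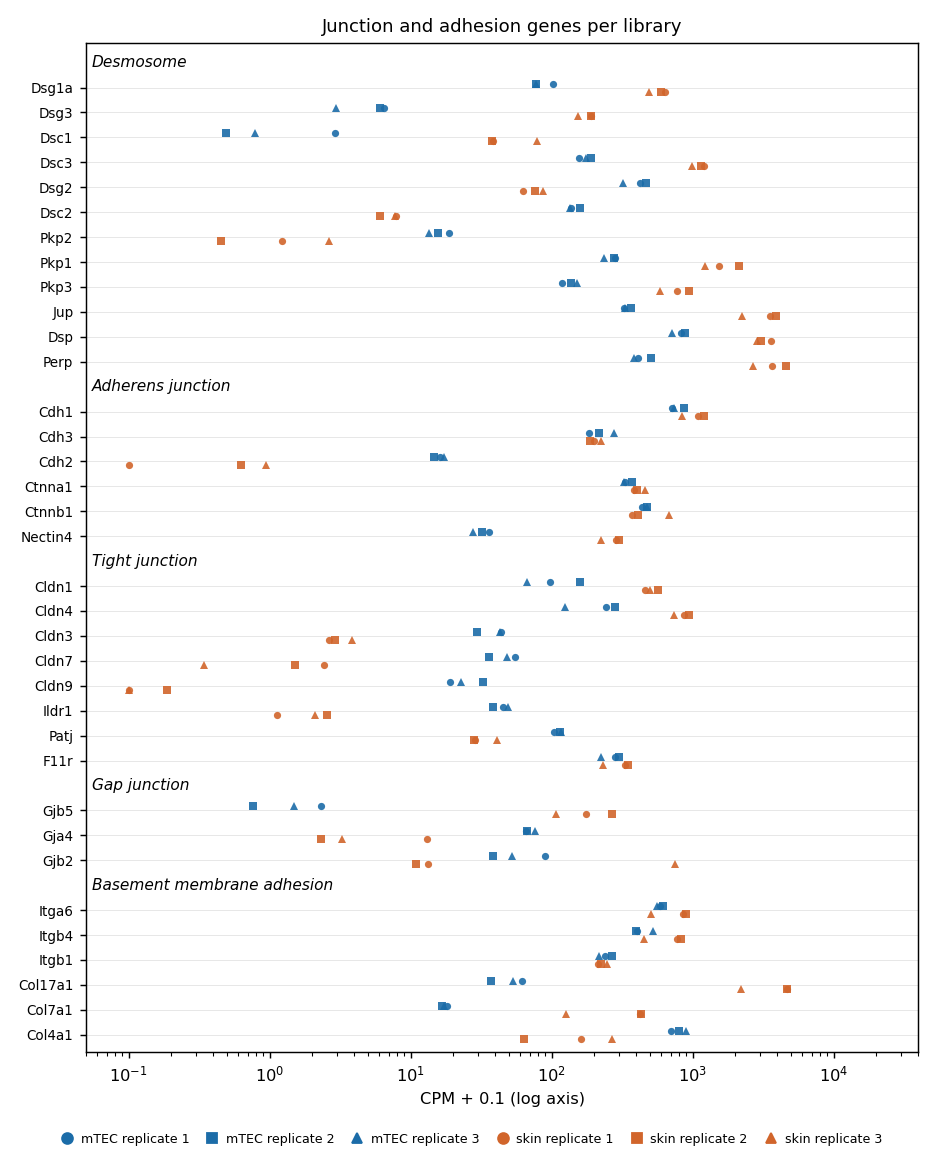
CPM + 0.1 on a log axis for genes of desmosomes, adherens and tight junctions, gap junctions and basement membrane adhesion, with 1 point per library, mTEC in blue above skin in orange. Dsg3, Jup, Gjb5 and Col17a1 are lower in all 3 mTEC libraries, Dsg2, Dsc2, Cldn3 and Cldn7 higher, and Cdh1, Cdh3 and Itgb1 overlap or nearly so.

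By its median the adherens junction was closer to equality than the desmosome. Of 15 genes tested 9 were lower, 3 higher and 3 did not pass, with a median of -0.47, beside 22.4% lower of all genes tested. Within 2-fold were 4 genes, beside 24.2% of all genes tested and 56.2% of those with at least 10 CPM in both groups. That count does not set the list apart as near equality. Here within 2-fold means that the 95% interval of the fold change lay inside 2-fold in either direction and both groups averaged 10 CPM or more. Cdh1, E-cadherin, had 712, 863 and 735 CPM in mTEC and 1091, 1212 and 847 CPM in skin, with overlap, and passed at -0.45 ± 0.17 (adjusted p = 0.0384), but not without mTEC replicate 1 or 3 or skin replicate 1 or 2, where it was -0.32 to -0.42. Its call was also lost in the fit of the 6 libraries alone (adjusted p = 0.20), with upper quartile scaling, without a filter and with reads thinned to equal depth, the last also with a replicate block. Ctnnb1, beta-catenin, had 436, 472 and 475 CPM in mTEC and 370.2, 409 and 677 CPM in skin (-0.07 ± 0.20, adjusted p = 0.767). Cdh3, P-cadherin, had 184, 216 and 277 CPM in mTEC and 199, 188 and 225 CPM in skin (0.15 ± 0.49, adjusted p = 0.817). The members farthest apart were Cdh2 and Nectin4. Cdh2, N-cadherin, had 16.1, 14.5 and 17.2 CPM in mTEC and 0, 0.530 and 0.849 CPM in skin (5.00 ± 0.61, adjusted p = 1e-05, or 5.87 without skin replicate 3), and Nectin4 had 36.1, 32 and 27.6 CPM in mTEC and 286, 299.9 and 226 CPM in skin (-3.08 ± 0.23, adjusted p = 7.93e-08).

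Tight junction components were split. Of 19 tested 9 were lower, 6 higher and 4 did not pass, with a median of -0.48. Ildr1, a protein of tricellular junctions, had 44.9, 38.1 and 49.3 CPM in mTEC and 1.03, 2.47 and 2.0 CPM in skin (4.57 ± 0.24, adjusted p = 5.05e-09). Among claudins, the strand proteins, 10 of 19 tested were higher in mTEC, 6 lower and 3 did not pass, and 3 were lower in a fit of the 6 libraries alone. Cldn4 and Cldn1 were lower. Cldn4 had 242, 283 and 125 CPM in mTEC and 871, 949 and 735 CPM in skin (-1.97 ± 0.32, adjusted p = 0.000141). Cldn1, the claudin of the epidermal barrier, had 97.2, 158 and 67.0 CPM in mTEC and 463, 571 and 496 CPM in skin (-2.25 ± 0.60, adjusted p = 0.00534). Cldn3 and Cldn7 were higher. Cldn3 had 43.4, 29.6 and 43.1 CPM in mTEC and 2.54, 2.83 and 3.76 CPM in skin (3.65 ± 0.31, adjusted p = 2.89e-07), and Cldn7 had 55.0, 36.0 and 48.4 CPM in mTEC and 2.35, 1.41 and 0.242 CPM in skin (5.23 ± 0.44, adjusted p = 2.54e-07), or 5.94 without skin replicate 1. Cldn4 is itself known as a marker of mTEC.

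Among connexins, the channels of gap junctions, Gjb5 of the epidermis was lower in mTEC. It had 2.21, 0.669 and 1.39 CPM in mTEC and 177, 268 and 108 CPM in skin (-7.00 ± 0.50, adjusted p = 5.76e-08). Gja4, a connexin of endothelium, had 66.1, 66.6 and 75.7 CPM in mTEC and 12.9, 2.21 and 3.15 CPM in skin (3.53 ± 0.49, adjusted p = 3.3e-05, or 4.68 without skin replicate 1), while Cdh5, an endothelial cadherin, was at 2.11, 0.892 and 1.43 CPM in mTEC and 68.2, 22.3 and 16.5 CPM in skin. Gjb2, a connexin mutated in deafness, had 90.2, 38.5 and 52.6 CPM in mTEC and 13.3, 10.8 and 747 CPM in skin. Of 14 connexins tested, 3 were higher, 4 lower and 7 did not pass. The higher count was 5 without mTEC replicate 2, without skin replicate 1 or without a filter, 7 without skin replicate 2 and 8 without skin replicate 3.

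Among genes of adhesion to the basement membrane, the integrins were nearer to equality than the collagens. Itga6 and Itgb4 form the hemidesmosomal integrin. Itga6 had 584, 614 and 559.6 CPM in mTEC and 849, 902 and 508 CPM in skin (-0.36 ± 0.28, adjusted p = 0.282), and Itgb4 had 401, 397 and 523 CPM in mTEC and 769.9, 829 and 455 CPM in skin (-0.64 ± 0.33, adjusted p = 0.115), or -0.83 without skin replicate 3 (adjusted p = 0.043). In Itgb1, 240.5, 267 and 217 CPM in mTEC stood beside 214, 223 and 248 CPM in skin (0.08 ± 0.14, adjusted p = 0.648). The hemidesmosomal collagen Col17a1 had 61.7, 37.1 and 53.3 CPM in mTEC and 4683, 4696 and 2192 CPM in skin (-6.25 ± 0.66, adjusted p = 2.58e-06). Col7a1, the anchoring fibril, had 18.2, 16.7 and 17.2 CPM in mTEC and 424, 432 and 126 CPM in skin (-4.23 ± 0.59, adjusted p = 3.56e-05). Higher in mTEC was Col4a1, a basement membrane collagen chain, with 699.6, 795 and 904 CPM in mTEC and 162, 63.8 and 269.8 CPM in skin (2.27 ± 0.42, adjusted p = 0.000396), or 2.86 without skin replicate 3. Of the 20 genes tested 8 were lower, 5 higher and 7 did not pass, and 4 were within 2-fold, beside 24.2% of all genes tested.

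Most regulators of stratified epithelium were lower in mTEC. Of 35 tested 24 were lower in mTEC, 5 higher and 6 did not pass, with a median of -1.28. Within 2-fold were 4, beside 24.2% of all genes tested. Trp63 encodes p63, the regulator of stratified fate, and had 186, 214 and 236 CPM in mTEC and 283, 327 and 277 CPM in skin. The libraries did not overlap, and the difference of -0.48 ± 0.52 did not pass (adjusted p = 0.453). Grhl2 had 63.5, 84.0 and 65.1 CPM in mTEC and 75.2, 91.4 and 64.6 CPM in skin (-0.12 ± 0.16, adjusted p = 0.54). Several factors of keratinocyte differentiation were lower. Ovol1 had 15.4, 8.76 and 9.92 CPM in mTEC and 956, 692 and 407 CPM in skin (-5.91 ± 0.39, adjusted p = 2.78e-08). Gata3 had 13.1, 14.3 and 12.8 CPM in mTEC and 357, 343 and 275 CPM in skin (-4.60 ± 0.22, adjusted p = 2.06e-09). Grhl1, a regulator of desmosomal cadherins, had 35.2, 34.9 and 25.6 CPM in mTEC and 256, 289 and 277 CPM in skin (-3.10 ± 0.16, adjusted p = 3.44e-09). Zfp750, which drives terminal differentiation, was at -2.71 ± 0.17 (adjusted p = 2.15e-08), and Tfap2a at -4.08 ± 0.53 (adjusted p = 1.75e-05). Klf4, a barrier factor, was at 531, 815 and 373 CPM in mTEC and 1444, 1797 and 1494 CPM in skin (-1.46 ± 0.30, adjusted p = 0.000799). The 5 higher genes were Foxn1, Pax9, Elf3, Ehf and Notch2. Foxn1, needed in both thymus and hair, had 123, 103 and 151 CPM in mTEC and 20.2, 30.4 and 23.8 CPM in skin (2.34 ± 0.31, adjusted p = 2.14e-05). Pax9, a factor of the pharyngeal pouches, had 129, 169.9 and 106 CPM in mTEC and 0.0940, 0.530 and 0.849 CPM in skin (7.96 ± 0.74, adjusted p = 7.06e-07), or 8.72 without skin replicate 3.

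Genes near equality were a large class. Within 2-fold were 4633 genes, 24.2% of those tested and 56.2% of the 8249 genes with at least 10 CPM in both groups. Of these, 31 (0.162% of those tested) were also at least 4-fold higher in both mTEC and skin than in colon and in lung. Colon and lung were made with another kit, so tissue and kit cannot be told apart in this step. Axl, a receptor tyrosine kinase, had 169.6, 139.6 and 179 CPM in mTEC and 141, 134 and 238 CPM in skin (-0.07 ± 0.30, adjusted p = 0.846). Tiam1, an activator of Rac, had 229, 267 and 228 CPM in mTEC and 364, 355 and 277 CPM in skin (-0.46 ± 0.18, adjusted p = 0.042), a call that was lost without any 1 library other than skin replicate 3, at -0.38 to -0.50. It was also lost in the fit of the 6 libraries alone, with DESeq2 or its size factors, upper quartile scaling, no filter, RSEM counts and thinned reads, at -0.33 to -0.43. Nxn, Irf5, Efs, Rcn1, Amotl1, Nkd2 and Skint1 were others of the 31. Gapdh, Ppia, Tpt1, Rpl10, Hnrnpa1 and Cox7c were among them as well, and these have many processed copies in the genome. With the RSEM estimates, which divide reads that match several genes, 24 genes met the rule, 22 of them among the 31, and the 6 genes with many copies did not meet it. With skin replicate 2 alone in its group 15 met it. No member of the keratin, cornification or junction lists was among the 31. Beside the 0.162% of all genes tested, lists of this size could well hold none, so this does not set them apart.

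Transcription in mTEC covered more genes. After thinning to 12946533 gene reads each, protein-coding genes with at least 5 reads numbered 16957, 15900 and 16496 in mTEC and 13058, 13176 and 13817 in skin, or 16451 ± 529.9 in mTEC and 13350.3 ± 408 in skin (SD, n = 3 each). The difference of 3101 genes was several times the spread, and its p of 0.10 was the smallest that an exact two-sided permutation test of 3 against 3 can give. Counts were 14512 to 15104 in cTEC, 13202 to 13540 in colon and 13609 to 13625 in lung. The 100 most abundant genes of each library took 20.4%, 21.9% and 21.3% of gene reads in mTEC and 38.3%, 30.5% and 22.1% in skin (exact permutation p = 0.10). Without Gm42418 these shares were 19.1%, 21.1% and 20.2% in mTEC and 27.7%, 27.0% and 20.5% in skin, with overlap between the groups (exact permutation p = 0.20). Gene reads were spread so that 1088, 913 and 1013 genes held 50% of them in mTEC and 316, 490 and 833 in skin. Without Gm42418 these counts were 1139, 942 and 1053 in mTEC and 570, 577 and 886 in skin.

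**Figure D5:**
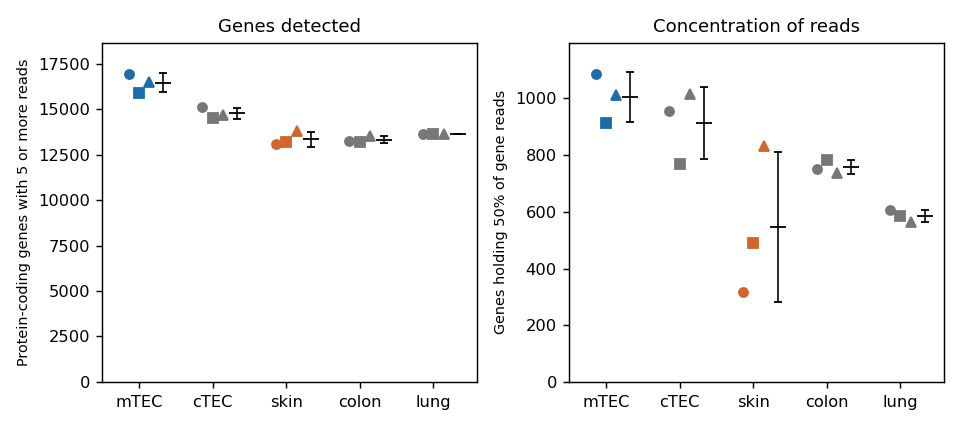
Number of protein-coding genes with at least 5 reads after thinning to equal depth, and number of genes that hold 50% of gene reads (Gm42418 included), with 1 point per library and a bar at the mean ± SD for mTEC, cTEC, skin, colon and lung. The 3 mTEC libraries lie at 15900 to 16957 detected genes, above every other library.

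Part of what mTEC transcribed was not found in skin, while nearly all that skin transcribed was found in mTEC. Of 15671 protein-coding genes with 5 or more reads in every thinned mTEC library, 76.6% reached that in every skin library. Of 12187 such genes of skin, 98.5% did so in mTEC. There were 1229 protein-coding genes with 5 or more reads in every mTEC library and none in any skin library, and 2 of the reverse kind, Omd, a matrix proteoglycan, and Skint5, a gene of the family that selects epidermal gamma-delta T cells. Leaving out 1 library gave 1241 to 1699 and 2 to 5 genes. Low counts added to breadth unevenly, since genes with 1 to 4 reads numbered 1764, 2105 and 1790 in mTEC and 302, 1391 and 534 in skin. The skin libraries also had 46.9%, 35.4% and 31.8% of reads outside genes, against 31.2%, 27.7% and 26.4% in mTEC. Sense reads were 8.43, 13.0 and 17.0 times the opposite strand in skin and 18.2, 19.3 and 18.8 times in mTEC. Thinning of gene reads does not even out such differences between libraries, and their part in the breadth was not tested. Skin replicate 2 also held traces of thymic transcripts, with Aire at 1.85, Fezf2 at 1.32 and Csn2 at 1.06 CPM. The source of these reads was not tested and cannot be told from the deposited counts, so the skin levels of Aire, Fezf2, Csn2, Spib and Trpm5, and the folds against them, are uncertain.

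Genes at or near 0 in skin came from many organs. Crp, the C-reactive protein of liver, had 43.8, 48.6 and 46.5 CPM in mTEC and no read in skin, at least 593-fold higher. Scg5, a neuroendocrine chaperone, was at least 511-fold higher, with 40.4, 39.8 and 39.5 CPM in mTEC, Calca, the calcitonin gene of thyroid, at least 388-fold, and Pgc, a stomach pepsinogen, at least 351-fold. Ins2, insulin, was lower than these at 3.06, 1.0 and 1.60 CPM in mTEC and at least 24.4-fold higher. Csn2, beta-casein of milk, had reads in skin as well, with 288, 110.2 and 177 CPM in mTEC and 0, 1.06 and 0.0606 CPM in skin (9.10 ± 0.72, adjusted p = 5.23e-07). Without skin replicate 2 there was 1 Csn2 read left in skin, and without skin replicate 3 the difference was 8.47. In Calca, Pgc, Ins2 and Csn2 mTEC replicate 2 was the lowest of its group.

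By organ, detection covers every listed gene. At 5 thinned reads 20, 17 and 19 of 22 liver genes were detected in mTEC and 4, 7 and 8 in skin. Of 25 pancreas and islet genes 21, 18 and 20 were detected in mTEC and 3 in each skin library, and of 24 gut and stomach genes 24, 23 and 24 in mTEC and 5, 6 and 4 in skin. Of 25 nervous system genes 24, 22 and 21 were detected in mTEC and 6, 8 and 9 in skin, and of 28 germ cell genes 21, 15 and 15 in mTEC and 3 in each skin library. The mTEC libraries were above the skin libraries in each of these lists. Calls were possible for fewer genes, and many of those tested had no read in skin, so that they passed the filter on low counts through other groups and could not come out lower. This held for 7 of 18 tested liver antigens, 10 of 17 of pancreas and islets, 12 of 24 of gut and stomach, 9 of 13 endocrine, 6 of 22 of the nervous system, 6 of 14 of germ cells, 5 of 12 of the eye, 4 of 11 of kidney and bladder and 3 of 7 of milk and saliva. With that limit, as a description, 15 liver, 15 pancreas and islet, 22 gut and stomach, 11 endocrine, 17 nervous system, 11 germ cell, 8 eye, 8 kidney and bladder and 5 milk and saliva antigens were higher in mTEC. In a fit of the 6 libraries alone 5 eye antigens were higher, and without a filter 13 of kidney and bladder and 10 of milk and saliva. Lower were 2 nervous system, 1 endocrine and 1 germ cell antigen. The endocrine one was lost without mTEC replicate 2 or 3, and the germ cell one in the fit of the 6 libraries alone or without a filter. There was 1 lower gut antigen without skin replicate 2 or 3, and 1 lower milk and saliva antigen without skin replicate 2. With genes without a read in skin at their lower bound, the medians were 3.99 for liver, 5.13 for pancreas, 5.00 for gut and 3.47 for germ cells, and 4.46, 8.39, 8.18 and 5.09 as fitted.

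Lung and muscle lists held more genes with reads in skin. Of lung antigens, all with reads in skin, 12 of 13 were higher, 7 without skin replicate 3 and 6 in the fit of the 6 libraries alone. Of the 25 muscle antigens tested 6 had no read in skin and could not come out lower. Muscle differed least, with 11 of 25 higher, 3 lower and 11 not passing and a median of 0.76, and with a filter at 1 CPM in 3 libraries 7 were higher. Its lower genes were Tnni2, Tnnc2 and Acta1, of fast or skeletal fibres, and their count was 1 to 5 in fits without 1 library, with Tnni2 at -0.91 and Acta1 at -1.50 without skin replicate 1. In the fit of the 6 libraries alone and with the replicate number as a block 1 of the 3 calls was left, since Tnni2 and Tnnc2 did not pass. The acetylcholine receptor chain Chrna1, target of antibodies in myasthenia, had 3.62, 2.12 and 2.34 CPM in mTEC and no read in skin, at least 34.5-fold higher.

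Marker genes of subsets that resemble other organs' cells were also higher. Of 16 ciliated cell genes tested, 2 of them with no read in skin, 14 were higher in mTEC and 1 lower. None was lower without mTEC replicate 1 or 2 or without a filter. Foxj1, the factor of motile cilia, had 33, 19.5 and 35.1 CPM in mTEC and 0.376, 0.618 and 1.45 CPM in skin (5.05 ± 0.47, adjusted p = 7.85e-07, or 5.88 without skin replicate 3), and Dnah5, a ciliary dynein, was at least 130-fold higher. Of 16 ionocyte and secretory genes 15 were higher, 6 of the 16 having no read in skin. Of 12 neuroendocrine genes, 4 of them with no read in skin, 9 were higher and none lower, or 1 lower without skin replicate 1. Among them was Chga, chromogranin A, with 97.9, 237 and 217 CPM in mTEC and 0.188, 0.353 and 0.121 CPM in skin (9.74 ± 0.77, adjusted p = 1.49e-07). Of 10 microfold genes 8 were higher and none lower. Spib had 289, 236 and 367 CPM in mTEC and 0.658, 1.41 and 0 CPM in skin (8.89 ± 0.63, adjusted p = 5.66e-08, or 10.11 without skin replicate 2 and 8.17 without skin replicate 3), and Gp2 had 95.7, 73.0 and 106 CPM in mTEC and 0, 0.177 and 0 CPM in skin.

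Tuft cell genes included exceptions. Of 16 tested, 1 of them with no read in skin, 13 were higher and 3 lower. Trpm5, the channel of tuft and taste cells, had 82.3, 78.1 and 116 CPM in mTEC and 0.188, 0.353 and 0 CPM in skin (9.13 ± 0.71, adjusted p = 1.27e-07, or 10.17 without skin replicate 2 and 8.40 without skin replicate 3), and Gnat3, gustducin, was at least 171-fold higher. Pou2f3, the master regulator of tuft cells and also a factor of keratinocyte differentiation, was lower, with 36.8, 31.0 and 35.6 CPM in mTEC and 201, 263 and 112 CPM in skin (-2.48 ± 0.31, adjusted p = 1.3e-05).

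Antigen presentation separated the groups by class. All 12 MHC class II genes were higher in mTEC, with a median of 7.15. Cd74, the invariant chain, had 8716, 8160.0 and 9667 CPM in mTEC and 79.5, 64.1 and 41.9 CPM in skin (7.16 ± 0.43, adjusted p = 1.24e-08). Ciita, the regulator of class II transcription, had 179.5, 127 and 205 CPM in mTEC and 0.0940, 0.530 and 0.424 CPM in skin (8.86 ± 0.59, adjusted p = 3.47e-08). Of 17 MHC class I genes 14 were higher, none lower and 3 did not pass, with a median of 1.01, and without skin replicate 3 there was 1 lower. B2m had 3713, 4165 and 3272 CPM in mTEC and 1202, 1344 and 782 CPM in skin (1.74 ± 0.24, adjusted p = 2.57e-05). Psmb9, an immunoproteasome subunit, had 107, 114 and 121 CPM in mTEC and 41.5, 35.5 and 21.8 CPM in skin (1.79 ± 0.22, adjusted p = 1.13e-05). Nlrc5, the regulator of class I transcription, had 125, 137 and 100.4 CPM in mTEC and 231, 184 and 115 CPM in skin and did not pass (-0.55 ± 0.28, adjusted p = 0.104), except without skin replicate 3 (-0.76, adjusted p = 0.017). Haematopoietic markers were low in both groups. B cell markers summed to 88.4, 42.6 and 89.4 CPM in mTEC and 8.18, 3.27 and 4.97 CPM in skin, with 5 of 7 tested higher. Myeloid markers summed to 232, 137 and 199 CPM in mTEC and 66.7, 39.6 and 79.6 CPM in skin, with 6 of 13 higher and 2 lower, or 1 lower without a filter or in the fit of the 6 libraries alone. Markers of thymocytes and T cells summed to 113, 61.9 and 83.5 CPM in mTEC and 119, 175 and 171 CPM in skin, with 13 of 21 higher and 2 lower, and Cd3e at 2.86, 1.28 and 1.26 CPM in mTEC and 1.79, 0 and 0.545 CPM in skin, which passed as higher without skin replicate 1 (2.54). Among those tested, 5 of 21 thymocyte and T cell, 1 of 7 B cell and 1 of 13 myeloid markers had no read in skin. Those genes could not come out lower. The part of haematopoietic cells in the MHC results was not tested.

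Among alarmins and antimicrobial genes 9 of 23 were lower in mTEC, 6 higher and 8 did not pass. The secreted epidermal proteins Sbsn, Dmkn and Krtdap were the most abundant of them in skin. Sbsn had 17.0, 10.3 and 14.6 CPM in mTEC and 1038, 1241 and 1113 CPM in skin (-6.34 ± 0.25, adjusted p = 5.5e-10). Il33, an alarmin of barrier cells, had 5.88, 4.18 and 3.12 CPM in mTEC and 52.8, 81.6 and 113 CPM in skin (-4.23 ± 0.49, adjusted p = 5.99e-06). S100a8, a calgranulin, went the other way, with 41.8, 21.9 and 36.1 CPM in mTEC and 0, 0.0883 and 0.909 CPM in skin (6.42 ± 1.04, adjusted p = 0.000218), and without skin replicate 3 there was 1 S100a8 read in skin.

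The largest negative differences of the whole comparison lay outside the cornified layer as well. Ndufa4l2, a mitochondrial protein induced by low oxygen, had 0.452, 0.112 and 0.563 CPM in mTEC and 336, 309.6 and 182 CPM in skin (-9.45 ± 0.52, adjusted p = 6.46e-09). Lgals7, the galectin of stratified epithelia, had 9.54, 4.18 and 6.11 CPM in mTEC and 2765, 3408 and 1924 CPM in skin (-8.67 ± 0.46, adjusted p = 5.06e-09). Col1a2, a fibroblast collagen, was at -8.18 ± 0.80 (adjusted p = 1.26e-06), or -7.41 without skin replicate 3, with 4.42, 2.57 and 4.77 CPM in mTEC and 1056, 325 and 2057 CPM in skin. It is itself one of the genes in the fibroblast sums given above, so its match with them is no separate observation.

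Most calls among cell cycle genes were lost without skin replicate 3, and many also without mTEC replicate 2 or 3 or in the fit of the 6 libraries alone. Of 20 tested 13 were lower and none higher, with a median of -1.28, and without skin replicate 3 the counts were 1 lower and 1 higher. Mki67 had 78.0, 44.5 and 46.2 CPM in mTEC and 79.0, 74.2 and 297 CPM in skin, passed at -1.42 ± 0.46 (adjusted p = 0.0156) with overlap between the groups, and did not pass without skin replicate 3 (-0.42), mTEC replicate 2 (-1.25) or mTEC replicate 3 (-1.27). The count of lower genes was 5 without mTEC replicate 2 or without mTEC replicate 3. In the fit of the 6 libraries alone it was 2, and Mki67 did not pass there (adjusted p = 0.081).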

How the data were processed

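Polyadenylated RNA of sorted cells was sequenced in 15 libraries of 5 groups, and the 3 mTEC and 3 skin libraries were compared. Per the submitters' processing notes, reads were demultiplexed with bcl2fastq 2.20, aligned to GRCm38 with STAR 2.5.1b and quantified with RSEM 1.2.28. Their gene annotation is not named. The deposited tables hold read counts per gene for uniquely placed reads, of which the sense column was used (sense reads were 8.43 to 19.3 times the opposite strand), and the authors' RSEM expected counts, TPM and gene length. Expected counts were rounded to whole numbers for an alternative fit, and TPM from the authors' RSEM tables were used for levels between genes. Reads outside genes were left out of library sizes. Of 50600 identifiers 50376 matched GENCODE M21 and 224 did not.

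Genes were filtered with filterByExpr, scaled with TMM and tested with the edgeR 4.0.16 quasi-likelihood F-test in R 4.3.3, with 1 term per group over all 15 libraries, and adjusted with the Benjamini-Hochberg method over 19107 genes. The standard error is the log2 fold change divided by the square root of F. The common biological coefficient of variation was 28.1%. The test was tried on simulated counts with known changes, which had the same spread for all genes and libraries. In the data, pairs of skin libraries differed more than pairs of mTEC libraries. That trial therefore does not give the error rate of the test in these data. Where a group had no read, a lower bound of the fold was set from a floor of 3 reads for the whole group, 0.0780 CPM for skin, and reads from PCR-amplified libraries are not independent molecules. For detection, gene reads were thinned at random to the smallest library. The alternatives were other scalings, filters and counts, DESeq2 1.42.0, a replicate block, a test against a 2-fold change, and each library left out. Nothing in the labels says that the pools were prepared separately, so p-values measure the spread between pools. That spread was estimated over all 5 groups together, with cTEC, colon and lung, and not from the mTEC and skin pools alone. Colon and lung were made with another kit. In the fit of the 6 mTEC and skin libraries alone 7516 of 16967 genes passed, against 10899 of 19107.

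The 47 gene lists and 28 families, and the members named, were chosen with earlier results of these data known. Some genes are not reported here. Of the listed symbols Ctsv, Krt85 and Il36rn were not found in the tables. Genes named were the 12 largest changes per direction, up to 3 members per list and direction with the smallest p, the 12 most abundant shared genes, and markers chosen at the outset. Other list members were named after their values were seen.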

Additional observations from a re-analysis of the deposited data

How the results depend on the processing

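In the fits under other scalings, filters, counts and tools and without each library, genes higher in mTEC numbered 4632, with the 6 mTEC and skin libraries alone, to 8001, without a filter on low counts, and genes lower 2884 to 4380. Without each library in turn they numbered 6130 to 7790 higher and 3488 to 4380 lower. The exception was the test against a 2-fold change, with 4366 higher and 1605 lower. Genes within 2-fold numbered 3791 to 4762. Genes within 2-fold and at least 4-fold over colon and lung were 15 with skin replicate 2 alone in the skin group, a setting chosen after seeing the data. Deviations from the group means correlated at 0.011, 0.026 and 0.030 between mTEC and skin libraries of the same replicate number. Between libraries of different numbers the correlations were -0.047 to 0.027. These values cannot tell whether mTEC and skin pools of the same number came from the same mice. With the replicate number as a block 6549 genes were higher and 4120 lower. More protein-coding genes were detected in mTEC under every read minimum, unit and count tried, and leaving out a library left an exact p of 0.20, the smallest that 2 against 3 can give. The share of the 100 most abundant genes lost its separation without Gm42418. Of 121 genes whose log2 fold change is given or whose levels are compared, 99 kept direction and call in every setting. Those that changed sign did not pass: without a filter Axl was at 0.053, Ctnnb1 at 0.051 and Grhl2 at 0.0095, and with skin replicate 2 alone Asah1 was at 0.12, Axl at 0.29 and Ctnnb1 at 0.18. Without each library in turn Asah1 ran over -0.25 to 0.03, Axl over -0.22 to 0.27, Cdh3 over -0.00077 to 0.31, Ctnnb1 over -0.24 to 0.27, Grhl2 over -0.23 to 0.03 and Flg over -0.14 to 3.86, which passed at its upper end. The cause of these changes was not tested.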

Other observations

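Other gene families were measured in both groups. Of 1134 olfactory receptors, 35, 9 and 19 reached 5 thinned reads in mTEC and 7, 3 and 6 in skin. Their summed level was 41.3, 20.2 and 25.1 CPM in mTEC and 7.24, 5.56 and 5.09 CPM in skin. Of 22 alpha-defensins, antimicrobial peptides of Paneth cells, 4, 2 and 3 were detected in mTEC and none in any skin library, where they had no read. Of 19 crystallins, the lens proteins, 14, 12 and 14 were detected in mTEC and 5, 6 and 6 in skin, while their summed level was 239, 211 and 207 CPM in mTEC and 515, 570.3 and 395 CPM in skin. Of 57 keratin-associated proteins of the hair shaft, 4, 3 and 5 were detected in mTEC and 1, 1 and 8 in skin, the highest number being that of skin replicate 3.

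Ribosomal protein genes moved as a block. Of 76 tested, 74 were lower in mTEC and none higher, with a median log2 fold change of -1.04 beside 0.22 for all genes tested, and 9 stayed lower in the test against a 2-fold change. Their summed level was 22228, 25905 and 27784 CPM in mTEC and 54313, 61283 and 44683 CPM in skin. With RSEM estimated counts 74 were lower. Genes of the response to dissociation were abundant in both groups, at 23741, 34675 and 26243 CPM in mTEC and 38286, 41960.0 and 23685 CPM in skin, and 2 of 18 were higher in mTEC, 6 lower and 10 not passing. The higher count was 1 without mTEC replicate 2 or skin replicate 1 and in the fit of the 6 libraries alone, and 4 without a filter. Fosl1 had 53.5, 98.8 and 13.1 CPM in mTEC and 1465, 1604 and 826 CPM in skin (-4.56 ± 0.68, adjusted p = 6.42e-05 by edgeR, or -5.26 without mTEC replicate 2).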
